A study of Mus musculus with 9 samples.

Results

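A set of 54 mouse genes of the mitotic spindle, the kinetochore and cytokinesis was followed through the differentiation of satellite cells, the stem cells of skeletal muscle. They were chosen by name, as genes whose products are known to act in cell division, when earlier results of these data had been seen. They are 54 of the 45706 genes of the deposited table. All 54 were found there, and all 54 reached a normalized read count of at least 10 in at least 3 libraries, the minimum for testing. Satellite cells came from muscles of wild-type C57Bl6 mice aged 12 to 20 weeks, and RNA was sequenced at 3 stages with 3 libraries each, from different animals. Freshly isolated cells were taken without culture. Proliferating cells had spent at least 3 days in a growth medium of 20% FCS (fetal calf serum), with human FGF-2 at 2.5 ng/ml. Myotubes had then spent 6 days in medium with 2% horse serum, in which myoblasts leave the cell cycle and fuse. No genetic change or drug separated the stages, and the labels give no step that sorted fused from unfused cells. In such bulk RNA, fewer dividing cells and less RNA of a gene per cell cannot be told apart.

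In mitosis, the kinase Cdk1 with cyclin B starts chromosome condensation and spindle assembly, and the spindle's microtubules attach to kinetochores, protein complexes built on the centromere of each chromosome. The spindle checkpoint holds the cell until all kinetochores are attached. The anaphase-promoting complex with its activator Cdc20 then marks securin (Pttg1) for destruction, which frees separase (Espl1) to cut cohesin, and the central spindle and a contractile ring divide the cell. Most of these genes are transcribed in late S phase, G2 and mitosis, and quiescent satellite cells of adult muscle are known to be out of the cell cycle.

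The libraries held an estimated 12.0 to 24.3 M reads (M, mega), and freshly isolated replicate 1 was the shallowest. There 1 read was worth 2.18 normalized counts, against 0.748 to 1.05 in the other libraries. Of the 8 myogenic markers examined, Pax7, Myf5 and Vcam1 fell across the 3 stages, and Myog and Myh3 rose. On average Cdh15 and Des were lowest in proliferating cells, and Myod1 was highest there. Pax7, which marks satellite cells, read 15700, 11694 and 12892 in freshly isolated cells, 3330, 2668 and 2556 in proliferating cells, and 1254, 1645 and 1192 in myotubes. Myog, which drives differentiation, read 1257, 62 and 218 in freshly isolated cells, 2179, 9530 and 8749 in proliferating cells, and 37811, 33789 and 39734 in myotubes. Of the markers of other cell types, the 7 leukocyte genes summed to 721 to 730 in freshly isolated cells, mostly Cd68. Csf1r read 111, 47 and 45 there and Cd14 68, 35 and 27, while the defining leukocyte gene Ptprc read 0, 0 and 14. Itgam read 2, 6 and 2 in freshly isolated cells and 223, 213 and 229 in myotubes. The 6 endothelial genes summed to 127 to 244 in freshly isolated cells. Pericyte and smooth muscle genes summed to 2340 to 3789 there, mostly Acta2, and Schwann genes to 12204 to 13299, mostly Ncam1. The 7 fibro-adipogenic genes summed to 11177 to 21531 there, mostly Col3a1 and Dpt, while Pdgfra read 4, 5 and 9. The same 7 genes summed to 3182 to 3214 in proliferating cells and to 3939 to 5149 in myotubes, and the part of such cells in the results was not tested.

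The start regions of these genes share short sequence motifs that the choice of genes did not use. In human and mouse cells, the cell cycle genes homology region (CHR) is known as the DNA element through which the DREAM and Myb-MuvB complexes silence and then switch on late cell cycle genes, often with CCAAT boxes, which bind NF-Y, placed upstream of it. RefSeq start windows on GRCm38.p6, of 250 bases before to 50 bases after the start, were at hand for 46 of the 54 genes, with 1 window per gene. A CHR, searched as TTTGAA or TTCGAA on either strand, lay in 34 of the 46 windows (73.9%), against 13.3% of the windows of 11050 genes tested. A CCAAT, on either strand, lay in 30 (65.2%), against 38.2%. Both motifs were in 28 windows (60.9%), against 5.55%. In all 28, at least 1 CCAAT began farther upstream than at least 1 CHR. Windows with several matches meet this readily, and its share over the genes tested was not counted. Of the 46 CHR matches in these windows, 32 began within 50 bases of the start, which was not counted over the genes tested either. The E2F site GGCGGGAA, typical of G1/S genes and searched on both strands, was in 1 window (2.17%), against 4.06%. CHR and CCAAT matches may share a base at their ends, and a match is a description of letters, not of binding. The 12 windows without a CHR were those of Plk4, Birc5, Mad2l1, Pttg1, Cenpk, Cenpp, Cenpe, Nuf2, Kif18a, Nusap1, Cit and Ncaph, and no match says only that these letters are not in these windows.

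The 120 bases before the RefSeq start are printed for 7 genes on which the results turn, 5 of them with the common pattern of values, Bub3 as the checkpoint gene with the least change between proliferating cells and myotubes, and Pttg1 as the gene that went the other way. Each is given 5′ to 3′ on the strand of its gene, with CHR and CCAAT matches of either strand in capitals. All but Pttg1 held both motifs in the bases printed, and are thus not typical of the set. In the 150 bases before the start, 13 of the 46 windows held both (28.3%), against 1.81% of the genes tested.
Cdk1 (chr10:69352913-69353032, minus strand): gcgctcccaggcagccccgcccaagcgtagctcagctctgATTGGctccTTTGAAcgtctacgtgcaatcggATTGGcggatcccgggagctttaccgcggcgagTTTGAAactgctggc
Cdc20 (chr4:118437344-118437463, minus strand): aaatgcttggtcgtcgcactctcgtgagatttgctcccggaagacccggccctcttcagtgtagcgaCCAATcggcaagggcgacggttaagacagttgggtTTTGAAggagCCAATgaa
Espl1 (chr15:102296173-102296292, plus strand): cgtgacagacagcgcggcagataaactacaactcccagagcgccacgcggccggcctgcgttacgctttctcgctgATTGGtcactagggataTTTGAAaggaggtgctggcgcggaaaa
Kif11 (chr19:37376262-37376381, plus strand): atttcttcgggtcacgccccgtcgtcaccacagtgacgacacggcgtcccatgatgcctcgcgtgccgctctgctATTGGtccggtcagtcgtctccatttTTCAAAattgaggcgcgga
Top2a (chr11:99024190-99024309, minus strand): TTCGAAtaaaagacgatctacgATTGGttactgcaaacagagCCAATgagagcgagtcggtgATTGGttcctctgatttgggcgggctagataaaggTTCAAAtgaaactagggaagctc
Bub3 (chr7:131560250-131560369, plus strand): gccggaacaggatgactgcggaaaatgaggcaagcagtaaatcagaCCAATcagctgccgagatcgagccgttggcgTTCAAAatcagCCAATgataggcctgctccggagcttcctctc
Pttg1 (chr11:43425982-43426101, minus strand): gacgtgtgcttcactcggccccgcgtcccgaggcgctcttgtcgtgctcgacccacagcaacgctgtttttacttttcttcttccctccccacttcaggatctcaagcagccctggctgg
In Cdk1 the CHR matches began 71 and 15 bases before the start, each with a CCAAT match upstream, at 80 and 48 bases before it. The Espl1, Kif11 and Cdc20 windows had their CHR at 27, 19 and 18 bases before the start, and their nearest upstream CCAAT at 44, 45 and 53 bases before it. Bub3 carried both motifs as well, with the CHR 43 bases before the start. The Pttg1 window held neither motif in its full 300 bases. The GENCODE vM21 gene of Pttg1 reaches to base 43426251, upstream of the RefSeq start used, and start windows other than the RefSeq one were not examined.

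Proliferating cells held far more RNA of nearly all of these genes than freshly isolated cells. The 54 genes together summed to 167182, 177655 and 163217 normalized counts in the 3 proliferating libraries, 0.919 to 0.979% of the library, against 7192, 6005 and 6176 in the freshly isolated ones, 0.0274 to 0.0307%. Of the 54 genes, 53 were higher in proliferating cells and 1, Pttg1, was lower (limma on log2(normalized count + 1), Benjamini-Hochberg adjusted p below 0.05 over 17291 genes tested). The shares over the 17291 genes were 37.6% higher and 35.7% lower. For each of the 54 genes, the 3 proliferating libraries lay entirely above, or for Pttg1 below, the 3 freshly isolated ones, which held in the same directions for 37.7% and 36.3% of all genes tested. The median log2 difference was 5.89 over the 54 genes and 0.07 over all genes tested. Many of these genes were near 0 before culture, with 5, 1 and 2 of the 54 listed at 0 in freshly isolated replicates 1, 2 and 3, and 9, 6 and 6 within 3 reads of 0. Fitted folds of such genes depend on the constant added before the log, and with 8 added in place of 1 the median was 5.53. Leaving out freshly isolated replicate 1 moved 16 of the 54 fitted differences by more than 1.5-fold, and all 53 genes remained higher without it.

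Myotubes held less RNA of most of these genes than proliferating cells, and more than freshly isolated cells. The sums in myotubes were 56540, 75341 and 48926 normalized counts, 33.4, 44.5 and 28.9% of the mean sum in proliferating cells. Against proliferating cells, 42 of the 54 genes were lower, 1 was higher, and 11 did not pass the threshold, set against shares of 25.5% lower and 28.6% higher over the 17291 genes. The median log2 difference of the 54 genes was -1.63, and that of all genes tested 0.04. The 3 myotube libraries lay entirely below the 3 proliferating ones for 52 of the 54 genes, against 33.5% of all genes tested. The 11 genes without a call were Cdk1, Aurka, Plk1, Mki67, Bub3, Cenpf, Ndc80, Hmmr, Kif18a, Cenpk and Cenpp. When the model held only the libraries of these 2 stages, leaving out the freshly isolated libraries with their values near 0, 52 genes were lower (31.3% of all genes tested), among them 10 of the 11 and all of the 42. Leaving out 1 proliferating or myotube library at a time left 35 to 40 genes lower, and leaving out 1 freshly isolated library 45 to 52, with 52 for replicate 1. The calls lost in at least 1 such fit were those of Cenpe, Cenpm, Kif18b, Nuf2, Plk4, Spc25 and Top2a.

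Against freshly isolated cells, myotubes were higher in 52 of the 54 genes (over the 17291 genes, 40.2% higher and 37.3% lower). The libraries of the 2 stages did not overlap in these 52 genes, which held in this direction for 40.7% of all genes tested and in the other for 38%. The 54 genes had a median log2 difference of 4.20, against 0.10 over all genes tested. None was lower by limma's adjusted p, and 0 were lower at an unadjusted p below 0.05. The 2 genes without a call were Pttg1 and Ska3. The largest log2 differences were those of Hmmr, 8.57 ± 0.58 (7.72 without freshly isolated replicate 3), and Cdk1, 8.49 ± 0.74 (7.69 without freshly isolated replicate 1 and 9.59 without replicate 3). At the other end, the smallest called differences were those of Cit (0.58 ± 0.13), Smc4 (1.21 ± 0.10), Ncapd2 (1.39 ± 0.14) and Cenpm (1.56 ± 0.28), genes that were already at 12% or more of their proliferating mean in freshly isolated cells, apart from Ncapd2. Leaving out freshly isolated replicate 1 moved 16 of the 52 differences by more than 1.5-fold. Since the comparisons share libraries, their values are given side by side, gene by gene. For 52 of the 54 genes, the proliferating libraries were the highest of the 3 stages without overlap, Pttg1 and Cenpp being the exceptions. The share of all genes tested with this joint order was not counted.

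**Figure D1:**
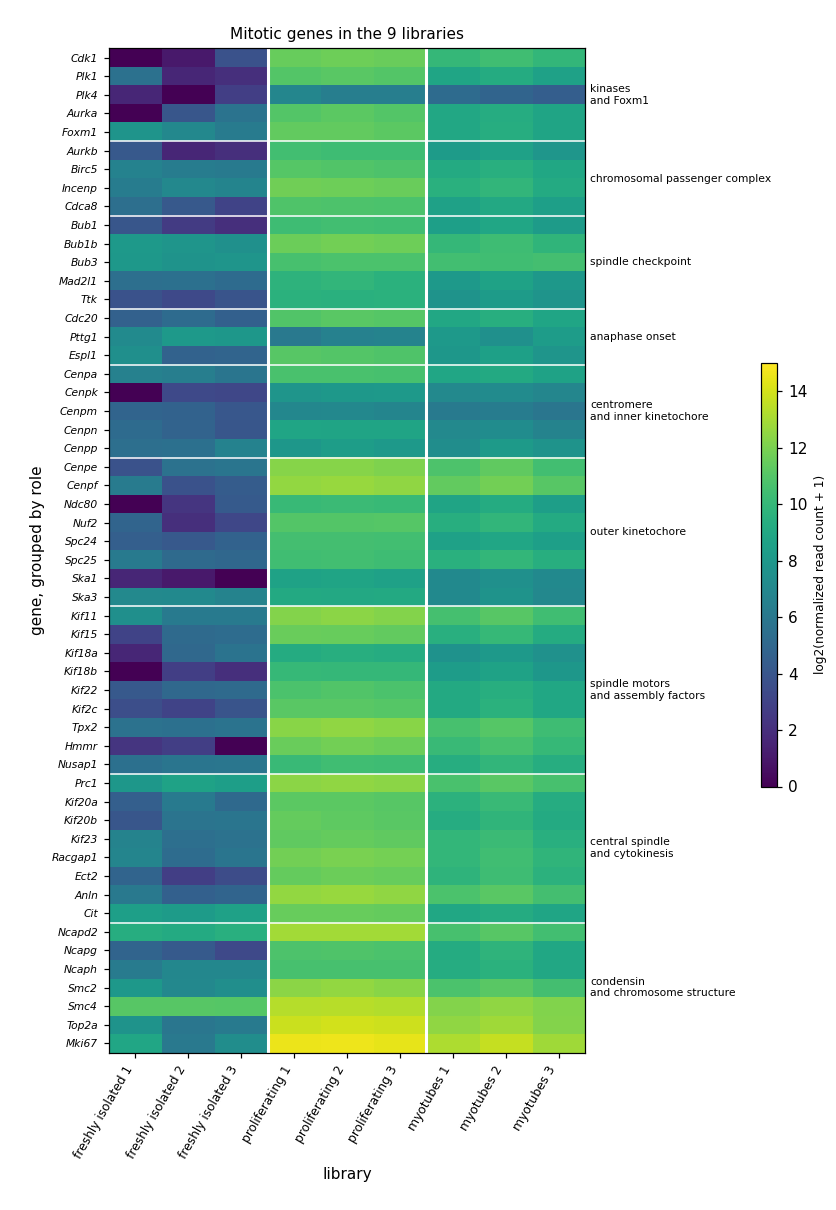
Log2(normalized read count + 1) of the 54 mitotic genes (rows, grouped by role) in the 9 libraries (columns, by stage). The proliferating block is the brightest for 52 genes, the myotube block lies between the other stages for most, and Pttg1 is darkest in the proliferating block.

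The kinases of mitotic entry and Foxm1 had the largest median difference of all roles in proliferating against freshly isolated cells, 7.82 on the log2 scale. Cdk1, the kinase that drives entry into mitosis, read 0, 1 and 13 in freshly isolated cells, 2910, 3351 and 3016 in proliferating cells, and 1000, 1325 and 979 in myotubes. The stages did not overlap, and Cdk1 was barely detected before culture. Its log2 difference was 9.99 ± 0.74 (SE, n = 3 each) in proliferating against freshly isolated cells (limma adjusted p = 8.53e-07), the largest of the 54 genes, and 8.07 with 8 added before the log. Without freshly isolated replicate 3 the fitted value was 11.09, and without replicate 1 it was 9.19. Plk1, a kinase of centrosomes, kinetochores and cytokinesis, read 48, 2 and 3 in freshly isolated cells, 1996, 2259 and 2029 in proliferating cells, and 453, 602 and 384 in myotubes. Of the freshly isolated libraries, replicate 1 was the high one, and the Plk1 difference of 7.96 ± 0.83 (limma adjusted p = 1.06e-05) was 9.24 without it and 7.22 without replicate 2. A processed pseudogene resembles 82.4% of a Plk1 transcript, which makes its count uncertain. Aurka, which matures the spindle poles, read 0, 15 and 52 in freshly isolated cells, 2025, 2341 and 2042 in proliferating cells, and 505, 615 and 436 in myotubes. Its freshly isolated libraries ran the other way, with replicate 1 at 0, and its difference of 7.82 ± 1.09 (limma adjusted p = 8.86e-05) was 6.19 without replicate 1 and 9.06 without replicate 3.

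Plk1 and Aurka both lay entirely lower in myotubes than in proliferating cells, by log2 values of -2.15 ± 0.83 (limma adjusted p = 0.0505) and -2.05 ± 1.09 (limma adjusted p = 0.138), and so did Cdk1, by -1.50 ± 0.74 (limma adjusted p = 0.113). The SE in these fits holds the spread of the freshly isolated libraries. With only the 2 stages in the model, the SEs were 0.16, 0.13 and 0.13 for Plk1, Aurka and Cdk1, and the limma adjusted p-values 3.29e-05, 2.08e-05 and 5.48e-05. Foxm1, a transcription factor known to switch on G2 and mitotic genes, read 218, 127 and 75 in freshly isolated cells, 2659, 2668 and 2345 in proliferating cells, and 511, 656 and 436 in myotubes. Foxm1 had the smallest difference of this group between proliferating and freshly isolated cells, 4.31 ± 0.32, and the lowest value in myotubes against proliferating cells, -2.27 ± 0.32 (limma adjusted p = 0.000164). Plk4, which starts centriole copying, read 116, 83 and 86 in proliferating cells, against 2, 0 and 6 in freshly isolated cells. In myotubes Plk4 read 37, 28 and 21, and its log2 difference of -1.71 ± 0.62 against proliferating cells (limma adjusted p = 0.0389) lost its call in each fit that left out 1 proliferating or myotube library, with adjusted p-values of 0.059 to 0.121. A pseudogene transcript resembles 40.5% of a Plk4 transcript.

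The chromosomal passenger complex, which corrects wrong attachments at the centromere and later moves to the central spindle, rose and fell as a whole: all 4 members were higher in proliferating than in freshly isolated cells, and all 4 were lower in myotubes than in proliferating cells. Its kinase Aurkb read 17, 2 and 3 in freshly isolated cells, 1395, 1299 and 1291 in proliferating cells, and 298, 389 and 234 in myotubes. Birc5 (survivin), which binds the complex to centromeric chromatin, read 100, 78 and 68 in freshly isolated cells, 2080, 1978 and 1811 in proliferating cells, and 570, 693 and 489 in myotubes. Incenp, the scaffold, read 78, 125 and 108 in freshly isolated cells, 3424, 3325 and 3089 in proliferating cells, and 721, 925 and 566 in myotubes. No stages overlapped in these 3 genes. The log2 differences of proliferating against freshly isolated cells were 7.79 ± 0.55 for Aurkb (8.58 without freshly isolated replicate 1), 4.58 ± 0.17 for Birc5 and 5.00 ± 0.20 for Incenp. In myotubes against proliferating cells the 4 members, with Cdca8 (borealin), stood close together, between -2.18 ± 0.20 for Incenp (limma adjusted p = 1.19e-05) and -1.75 ± 0.17 for Birc5 (limma adjusted p = 1.63e-05). Per kb of exon, normalized counts in proliferating cells were 758 for Incenp, 575 for Birc5, 451 for Aurkb and 348 for Cdca8. In myotubes they were 170, 172, 104 and 81.6. Exon length here counts all annotated exon bases of a gene, which can exceed the length of a transcript. Orders between genes per kb thus depend on the annotation as well as on RNA level.

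The spindle checkpoint genes divided into 4 that fell in myotubes and 1, Bub3, that kept most of its level. Bub1, a kinase that docks the checkpoint on kinetochores, read 15, 5 and 3 in freshly isolated cells, 1320, 1379 and 1327 in proliferating cells, and 356, 464 and 298 in myotubes. Mad2l1, the inhibitor of Cdc20, read 44, 45 and 37 in freshly isolated cells, 814, 943 and 759 in proliferating cells, and 264, 396 and 251 in myotubes. Both genes peaked in proliferating cells without overlap, with log2 differences against freshly isolated cells of 7.53 ± 0.42 for Bub1 and 4.29 ± 0.20 for Mad2l1, and in myotubes against proliferating cells of -1.87 ± 0.42 (limma adjusted p = 0.00363) and -1.49 ± 0.20 (limma adjusted p = 0.000126). Bub1b (BubR1), a part of the same inhibitor, read 268, 223 and 182 in freshly isolated cells, 3127, 3543 and 3250 in proliferating cells, and 1032, 1311 and 885 in myotubes. Bub3, the adaptor that brings Bub1 and BubR1 to kinetochores, read 255, 207 and 224 in freshly isolated cells, 1595, 1746 and 1707 in proliferating cells, and 1432, 1346 and 1478 in myotubes. The myotube libraries of Bub3 lay just below the proliferating ones, at 84.3% of their mean, where the other 4 checkpoint genes lay at 27.8 to 36.2%. Its difference of -0.25 ± 0.10 missed the threshold (limma adjusted p = 0.0683) and passed it with only these 2 stages in the model (limma adjusted p = 0.0137). Against freshly isolated cells, Bub3 was 6.2-fold higher in myotubes, a log2 difference of 2.63 ± 0.10 (limma adjusted p = 9.11e-09). Up to 35.8% of a Bub3 transcript has a near-identical stretch in a processed pseudogene, so how reads were shared between them is uncertain.

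**Figure D2:**
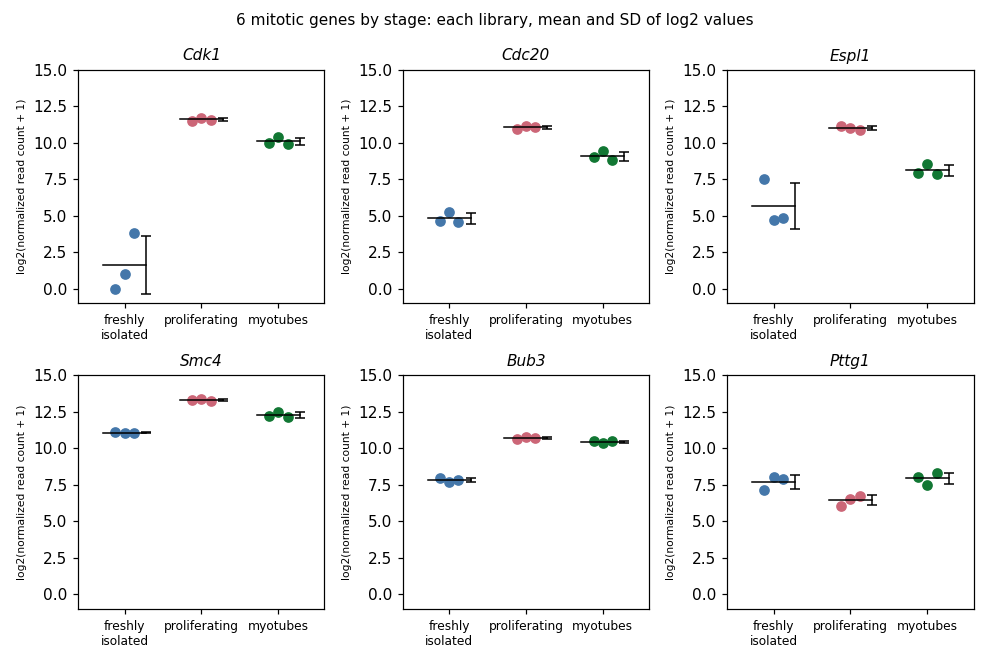
Log2(normalized read count + 1) of Cdk1, Cdc20, Espl1, Smc4, Bub3 and Pttg1 in each library by stage, with the mean (line) and SD (bar) of the 3 log2 values. Cdk1, Cdc20 and Espl1 were highest in proliferating cells, Smc4 read 2123 to 2240 in freshly isolated cells, Bub3 in myotubes stayed near its level in proliferating cells, and Pttg1 was lowest in proliferating cells.

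At anaphase onset, the activator and the protease followed the common pattern and securin did not. Cdc20, the activator of the anaphase-promoting complex, read 24, 37 and 23 in freshly isolated cells, 1976, 2296 and 2153 in proliferating cells, and 506, 676 and 442 in myotubes. It was 75.4-fold higher in proliferating than in freshly isolated cells (log2 6.24 ± 0.21, limma adjusted p = 4.43e-09) and 4.01-fold lower in myotubes than in proliferating cells (log2 -2.00 ± 0.21, limma adjusted p = 2.61e-05). A processed pseudogene resembles 84.3% of a Cdc20 transcript, and its share of the reads is not known. Espl1, the protease separase, read 179, 25 and 28 in freshly isolated cells, 2236, 2011 and 1882 in proliferating cells, and 245, 373 and 225 in myotubes. It kept the smallest part of its level in myotubes, 13.8% of the proliferating mean, a log2 difference of -2.89 ± 0.60 (limma adjusted p = 0.00234). In freshly isolated cells replicate 1 was the high library, and without it the difference of proliferating against freshly isolated cells was 6.21 in place of 5.31 ± 0.60, and that of myotubes against freshly isolated cells 3.32 in place of 2.42 ± 0.60.

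Pttg1, securin, which holds separase inactive until anaphase, read 142, 265 and 244 in freshly isolated cells, 66, 94 and 105 in proliferating cells, and 261, 181 and 315 in myotubes. The proliferating libraries were the lowest, below every library of the other stages, while freshly isolated cells and myotubes overlapped. The log2 difference was -1.26 ± 0.30 in proliferating against freshly isolated cells (limma adjusted p = 0.0032) and 1.49 ± 0.30 in myotubes against proliferating cells (limma adjusted p = 0.0018). Leaving out any 1 library kept both calls, with log2 values of -1.54 to -1.07 and 1.30 to 1.71. In myotubes against freshly isolated cells it was 0.23 ± 0.30 (limma adjusted p = 0.497), a value that became -0.05 when freshly isolated replicate 1 was left out. Among the 54 genes, Pttg1 alone was called lower in proliferating against freshly isolated cells, and alone called higher in myotubes against proliferating cells. It lies on chr11:43420250-43426251 (minus strand, GRCm38), where its exons overlap no other annotated gene, and no other annotated transcript was found to resemble it.

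The 5 centromere and inner kinetochore genes ranged from 29.1 to 78% of the proliferating mean in myotubes, with a median of 53.2%, against 32.7% over all 54 genes. Cenpa, the histone H3 variant that marks the centromere, read 94, 85 and 56 in freshly isolated cells, 1653, 1674 and 1602 in proliferating cells, and 475, 557 and 404 in myotubes. No stages overlapped, and its log2 difference was 4.41 ± 0.19 in proliferating against freshly isolated cells and -1.79 ± 0.19 in myotubes against proliferating cells (limma adjusted p = 3.17e-05). The other 4, Cenpk, Cenpm, Cenpn and Cenpp, encode subunits of the constitutive centromere network, which stays on the centromere through the cell cycle. Of these Cenpn read 37, 26 and 15 in freshly isolated cells, 459, 430 and 428 in proliferating cells, and 131, 158 and 105 in myotubes. Cenpn kept 29.9% of its proliferating mean in myotubes, close to Cenpa at 29.1%, with a log2 difference of -1.75 ± 0.30 against proliferating cells (limma adjusted p = 0.000724). Cenpk read 0, 9 and 8 in freshly isolated cells, 226, 254 and 272 in proliferating cells, and 134, 151 and 115 in myotubes. Its myotube libraries lay entirely below the proliferating ones, by -0.91 ± 0.73 (limma adjusted p = 0.319, and 0.000906 with only these 2 stages in the model). In proliferating against freshly isolated cells Cenpk differed by 5.81 ± 0.73, and by 4.73 without freshly isolated replicate 1, which was at 0.

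Cenpm read 28, 25 and 16 in freshly isolated cells, 120, 128 and 112 in proliferating cells, and 68, 79 and 58 in myotubes. Its stages stood apart, but the log2 difference of myotubes against proliferating cells, -0.81 ± 0.28 (limma adjusted p = 0.0308), lost its call in 5 of the 9 fits that each left out 1 library, with adjusted p-values of 0.0631 to 0.11. Cenpp read 44, 45 and 99 in freshly isolated cells, 241, 328 and 266 in proliferating cells, and 162, 283 and 206 in myotubes. Cenpp was the single gene whose myotube and proliferating libraries overlapped, with a log2 difference of -0.38 ± 0.33 (limma adjusted p = 0.351, and 0.159 with only these 2 stages in the model). Of its exon bases 12.3% overlap Ippk on the opposite strand, and no source used here gives the strand setting of featureCounts. Both genes were higher in proliferating than in freshly isolated cells, Cenpm by 2.37 ± 0.28 and Cenpp by 2.23 ± 0.33 on the log2 scale.

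All 8 outer kinetochore genes, which bind the microtubules, were higher in proliferating than in freshly isolated cells, with a median log2 difference of 7.38. Cenpe, a kinesin that brings chromosomes to the spindle equator, read 13, 50 and 57 in freshly isolated cells, 5029, 4900 and 4365 in proliferating cells, and 1789, 2588 and 1410 in myotubes. Cenpf, a large coiled-coil protein of the fibrous corona, read 74, 13 and 20 in freshly isolated cells, 6143, 6502 and 5806 in proliferating cells, and 2731, 3641 and 2200 in myotubes. Both genes peaked in proliferating cells without overlap and in myotubes kept 40.5% (Cenpe) and 46.5% (Cenpf) of that mean. Cenpe was lower in myotubes than in proliferating cells by -1.35 ± 0.46 (limma adjusted p = 0.0291, and 0.104 without myotube replicate 3), and Cenpf by -1.14 ± 0.49 (limma adjusted p = 0.0741, not called). In proliferating against freshly isolated cells the values were 7.10 ± 0.46 for Cenpe and 7.78 ± 0.49 for Cenpf, and 6.45 and 8.49 without freshly isolated replicate 1, where Cenpe was lowest and Cenpf highest.

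The 4 subunits of the Ndc80 complex, the main microtubule coupler, shared the pattern. Ndc80 itself read 0, 4 and 18 in freshly isolated cells, 1101, 1185 and 1089 in proliferating cells, and 433, 596 and 336 in myotubes. Spc24 read 22, 17 and 25 in freshly isolated cells, 1473, 1486 and 1405 in proliferating cells, and 384, 461 and 358 in myotubes. Spc25, the partner of Spc24, read 70, 36 and 31 in freshly isolated cells, 1324, 1400 and 1317 in proliferating cells, and 742, 986 and 679 in myotubes. None of these stages overlapped, and the log2 differences of the partners in myotubes against proliferating cells were unlike in size: Spc24 differed by -1.86 ± 0.17 (limma adjusted p = 1.15e-05) and Spc25 by -0.76 ± 0.27 (limma adjusted p = 0.0338, and up to 0.116 without 1 library). Whether Spc24 and Spc25 fell unequally was not tested. Ndc80 differed by -1.34 ± 0.81 between these stages (limma adjusted p = 0.189, and 0.000652 with only the 2 stages in the model). Per kb of exon, the 4 subunits were at 565 (Spc24), 423 (Spc25), 321 (Nuf2) and 173 (Ndc80) normalized counts in proliferating cells. In myotubes they were at 156, 252, 115 and 70.1. Spc25 was the highest there on this measure, an order that depends on the annotated exon lengths. Against freshly isolated cells, Ndc80 was higher in proliferating cells by 7.95 ± 0.81, which was 6.85 without freshly isolated replicate 1 and 8.98 without replicate 3. Up to 34.7% of an Ndc80 transcript has a near-identical stretch in a pseudogene.

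Ska1 and Ska3 encode subunits of the Ska complex, which binds microtubules together with the Ndc80 complex, and they differed in their level before culture. Ska1 read 2, 1 and 0 in freshly isolated cells, within 3 reads in each library, 400, 425 and 381 in proliferating cells, and 137, 181 and 137 in myotubes. Set against 3 reads per library, Ska1 was at least 94-fold higher in proliferating and at least 35.5-fold higher in myotubes than in freshly isolated cells. Ska3 read 133, 140 and 103 in freshly isolated cells, 555, 531 and 547 in proliferating cells, and 136, 211 and 125 in myotubes. Its myotube and freshly isolated libraries overlapped, with a log2 difference of 0.30 ± 0.21 (limma adjusted p = 0.219). Ska3 differed by 2.12 ± 0.21 in proliferating against freshly isolated cells, the smallest rise of the 54 genes, and by -1.82 ± 0.21 in myotubes against proliferating cells (limma adjusted p = 5.01e-05).

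The 9 spindle motors and assembly factors were all higher in proliferating than in freshly isolated cells, and 7 were lower in myotubes than in proliferating cells. Kif11 (Eg5), the kinesin that pushes the spindle poles apart, read 179, 71 and 73 in freshly isolated cells, 4725, 5269 and 4801 in proliferating cells, and 1502, 2156 and 1376 in myotubes. Tpx2, which activates Aurka on microtubules, read 50, 45 and 51 in freshly isolated cells, 5126, 5790 and 5092 in proliferating cells, and 1582, 2089 and 1291 in myotubes. Hmmr, a spindle-pole protein, read 4, 6 and 0 in freshly isolated cells, 3018, 3531 and 3195 in proliferating cells, and 1128, 1607 and 1059 in myotubes. No stages overlapped, and Hmmr was close to 0 before culture while Kif11 and Tpx2 were not. Their log2 differences of proliferating against freshly isolated cells were 5.64 ± 0.31 for Kif11, 6.75 ± 0.16 for Tpx2 and 9.95 ± 0.58 for Hmmr, which was 9.10 without freshly isolated replicate 3 and 8.20 with 8 added before the log. In myotubes against proliferating cells Tpx2 differed by -1.71 ± 0.16 (limma adjusted p = 1.24e-05) and Kif11 by -1.58 ± 0.31 (limma adjusted p = 0.00172), while Hmmr differed by -1.38 ± 0.58 (limma adjusted p = 0.0664, and 0.000218 with only these 2 stages in the model).

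Kif22, a chromosome-arm motor, read 17, 32 and 35 in freshly isolated cells, 1758, 1929 and 1704 in proliferating cells, and 556, 685 and 487 in myotubes. Kif2c (MCAK), which takes apart microtubule ends, read 11, 7 and 14 in freshly isolated cells, 2303, 2291 and 2087 in proliferating cells, and 542, 755 and 485 in myotubes. Both fell in myotubes against proliferating cells, with log2 differences of -1.65 ± 0.25 for Kif22 and -1.93 ± 0.24 for Kif2c, the lowest of the group (limma adjusted p = 0.000274 for Kif22 and 8.17e-05 for Kif2c). An annotated noncoding transcript resembles 50.8% of a Kif2c transcript and a pseudogene 35.1% of a Kif11 transcript, which makes these counts uncertain. Nusap1, which bundles spindle microtubules, kept 58.9% of its proliferating mean in myotubes. It read 46, 56 and 59 in freshly isolated cells, 1166, 1347 and 1291 in proliferating cells, and 655, 932 and 652 in myotubes, with a log2 difference of -0.78 ± 0.17 in myotubes against proliferating cells (limma adjusted p = 0.00274). Kif18a, which damps chromosome movements at metaphase, had the widest SE of the group, with 2, 32 and 52 in freshly isolated cells. It read 596, 674 and 624 in proliferating cells and 202, 273 and 195 in myotubes, and its log2 difference of proliferating against freshly isolated cells was 5.18 ± 0.83, or 3.92 without freshly isolated replicate 1 and 5.99 without replicate 3.

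All 8 central spindle and cytokinesis genes were higher in proliferating than in freshly isolated cells and lower in myotubes than in proliferating cells, where they kept 18.1 to 36.4% of the level. Prc1, which bundles the antiparallel microtubules of the central spindle, read 246, 400 and 335 in freshly isolated cells, 5324, 5878 and 5359 in proliferating cells, and 1631, 2321 and 1561 in myotubes. Kif23 (MKLP1), the motor of the centralspindlin complex, read 105, 44 and 50 in freshly isolated cells, 2552, 2775 and 2538 in proliferating cells, and 963, 1177 and 719 in myotubes. Kif20a (MKLP2), which carries the passenger complex to the central spindle, read 22, 73 and 34 in freshly isolated cells, 2376, 2417 and 2229 in proliferating cells, and 796, 1127 and 613 in myotubes. No stages of these genes overlapped. In proliferating against freshly isolated cells they rose by 4.10 ± 0.19 (Prc1), 5.39 ± 0.29 (Kif23) and 5.91 ± 0.37 (Kif20a) on the log2 scale, and in myotubes against proliferating cells the log2 differences were -1.61 ± 0.19, -1.49 ± 0.29 and -1.51 ± 0.37, with limma adjusted p-values of 5.5e-05, 0.00163 and 0.0055. Cdc23 overlaps 29.3% of the Kif20a exon bases on the opposite strand, and Rccd1 overlaps 11.1% of those of Prc1, so part of these counts is uncertain.

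Ect2, the exchange factor that activates RhoA at the division plane, had the largest log2 difference of the cytokinesis genes, 7.82 ± 0.42, in proliferating against freshly isolated cells. It read 28, 6 and 10 in freshly isolated cells, 2762, 3165 and 2958 in proliferating cells, and 853, 1289 and 788 in myotubes. Cit, citron kinase, which acts at the midbody, had the smallest, 3.06 ± 0.13, and read 355, 302 and 383 in freshly isolated cells, 2956, 2910 and 2778 in proliferating cells, and 497, 608 and 457 in myotubes. In myotubes Cit fell to 18.1% of its proliferating mean, a log2 difference of -2.48 ± 0.13 (limma adjusted p = 8.05e-07), and was then 1.5-fold its level in freshly isolated cells (log2 0.58 ± 0.13 in myotubes against freshly isolated cells, limma adjusted p = 0.00198). Under quantile normalization this last difference was 0.16 and was not called. The other genes of the group, Kif20b, Racgap1 and Anln, rose by 5.92 to 7.45 on the log2 scale in proliferating against freshly isolated cells and differed by -1.88 to -1.78 in myotubes against proliferating cells, each with a call.

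Of the condensin subunits, which compact the chromosomes, Smc4 had the highest level per kb of exon before culture. Smc4, an ATPase of the complex, read 2240, 2167 and 2123 in freshly isolated cells, 10193, 10658 and 9954 in proliferating cells, and 4852, 5773 and 4540 in myotubes. Smc2, its partner, read 257, 126 and 168 in freshly isolated cells, 5439, 6170 and 5258 in proliferating cells, and 1711, 2329 and 1493 in myotubes. Ncapd2, a regulatory subunit of condensin I, read 658, 581 and 702 in freshly isolated cells, 7700, 7737 and 7687 in proliferating cells, and 1574, 2168 and 1433 in myotubes. No stages overlapped in these genes. In proliferating against freshly isolated cells the log2 differences were 2.24 ± 0.10 for Smc4, 4.99 ± 0.24 for Smc2 and 3.58 ± 0.14 for Ncapd2, and in myotubes against proliferating cells -1.03 ± 0.10, -1.63 ± 0.24 and -2.18 ± 0.14 (limma adjusted p = 1.29e-05, 0.000245 and 1.89e-06). Per kb of exon, Smc4 was at 418 normalized counts and Smc2 at 33.5 in freshly isolated cells, at 1971 and 1026 in proliferating cells, and at 970 and 337 in myotubes. Their ratio per kb of annotated exon was thus nearest to even in proliferating cells, a description on which no test was run. Condensin I also has Ncaph and Ncapg, at 367 and 253 per kb in proliferating cells and 146 and 92.6 in myotubes. Lcorl overlaps 13.4% of the Ncapg exon bases on the opposite strand, so part of the Ncapg count is uncertain.

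Per kb of exon, Mki67, Smc4 and Top2a had the highest levels of the 54 genes in proliferating cells, 2379, 1971 and 1679 normalized counts. This ranking depends on the annotated exon lengths. Top2a, the topoisomerase that untangles sister chromatids, read 209, 59 and 70 in freshly isolated cells, 14349, 15986 and 15054 in proliferating cells, and 5866, 7570 and 4740 in myotubes. Mki67 (Ki-67), which coats mitotic chromosomes and is used as a marker of cycling cells, read 471, 66 and 163 in freshly isolated cells, 23855, 25457 and 22495 in proliferating cells, and 9247, 13203 and 7550 in myotubes. Freshly isolated replicate 1 was the high library of its stage in both genes. Top2a rose by 7.29 ± 0.39 on the log2 scale in proliferating against freshly isolated cells, and by 7.89 without freshly isolated replicate 1 and proliferating replicate 1. Mki67 rose by 7.11 ± 0.54, and by 7.83 without freshly isolated replicate 1 or 6.42 without replicate 2. In myotubes Top2a had a log2 difference of -1.35 ± 0.39 against proliferating cells (limma adjusted p = 0.0138, and 0.0566 without myotube replicate 3), and Mki67 one of -1.30 ± 0.54 (limma adjusted p = 0.0671, and 0.00085 with only these 2 stages in the model). Without Mki67 and Top2a, the myotube libraries summed to 31.8, 41.9 and 28.1% of the proliferating mean sum, and the freshly isolated ones to 5, 4.51 and 4.56%.

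**Figure D3:**
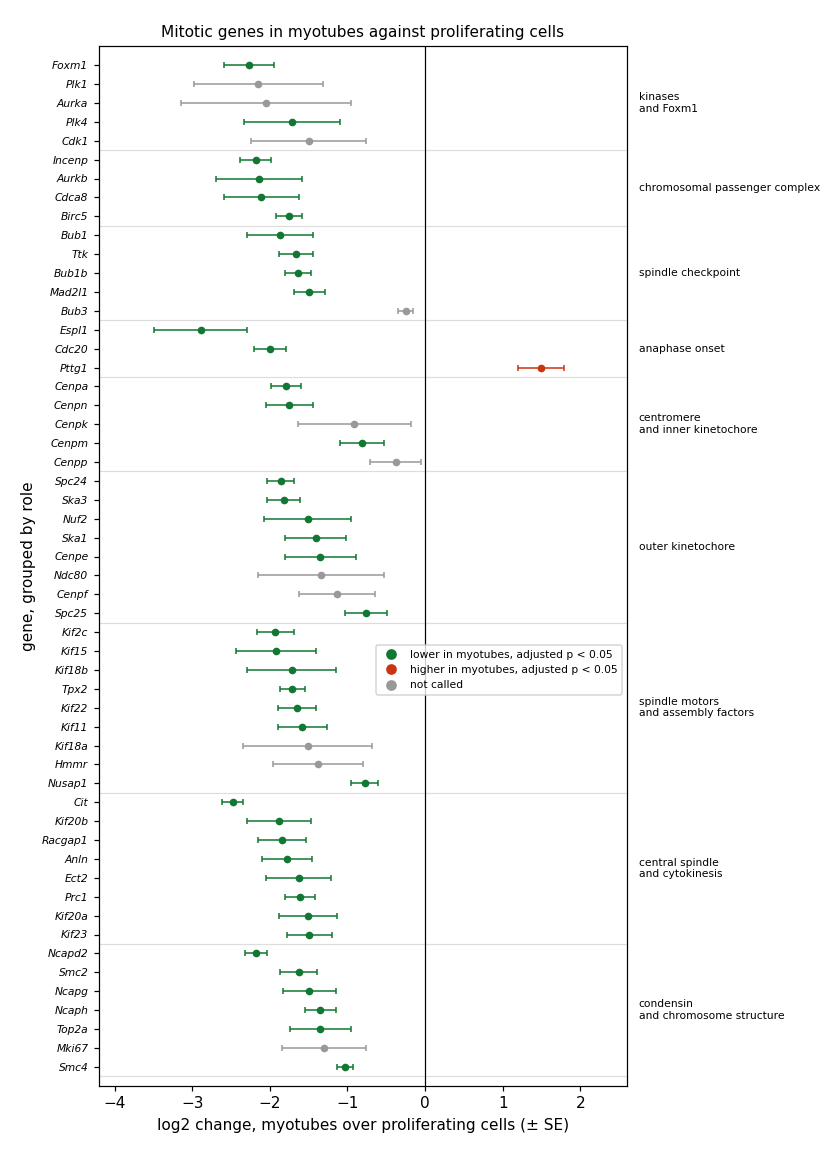
Log2 difference of myotubes against proliferating cells for the 54 genes, by role, with the SE of the limma fit over 9 libraries. Green points are lower in myotubes, the red point (Pttg1) is higher, and grey points did not pass the adjusted threshold of 0.05; most genes lie between -2.5 and -1, and Bub3 and Cenpp lie nearest 0.

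For most of the genes the level kept in myotubes lay in a narrow band. In 39 of the 54 genes the myotube mean was 20 to 40% of the proliferating mean, with a median of 32.7%. The chromosomal passenger complex kept a median of 23.3%, the kinases and Foxm1 24.3%, the 3 genes of anaphase onset 25.3%, the central spindle and cytokinesis genes 31.3%, the spindle motors 32.1%, the checkpoint 32.5%, the outer kinetochore 39.1%, the condensin group 39.8% and the centromere and inner kinetochore genes 53.2%. Outside the band were Espl1 and Cit below it, and Bub3, Cenpp, Spc25, Nusap1, Cenpm and Cenpk among those above. The level before culture ranged far more widely. In freshly isolated cells 40 genes were under 5% of the proliferating mean and 7 were above 10%. These 7 were Ska3 (23%), Cenpp (22.5%), Smc4 (21.2%), Cenpm (19.2%), Bub3 (13.6%), Cit (12%) and Pttg1 (246%). The lowest of these levels are uncertain, since 9, 6 and 6 of the 54 genes lay within 3 reads of 0 in freshly isolated replicates 1, 2 and 3. Shares over all genes tested were not counted for these bands.

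Within myotubes, the 3 libraries differed in these genes in 1 order. Replicate 2 was the highest of the 3 in 51 of the 54 genes (94.4%), against 34.4% of all genes tested, and replicate 3 the lowest in 49 (90.7%), against 28.8%. The exceptions for replicate 2 were Pttg1, Bub3 and Plk4. The median deviation of the 54 genes from their stage mean was -0.06, 0.35 and -0.26 on the log2 scale in replicates 1, 2 and 3, and that of all genes tested -0.00, -0.01 and 0.02. Of the myogenic markers, Myog, Myh3 and Des were lowest in replicate 2 and highest in replicate 3. Myog read 37811, 33789 and 39734, and Myh3, the embryonic myosin heavy chain, 323523, 296158 and 335321. The other markers, Pax7, Myf5, Vcam1, Cdh15 and Myod1, were highest in replicate 2. Cdh15 read 4459, 4865 and 4675, and Myod1 6955, 7315 and 6858. Of all genes tested, 38.1% were lowest in replicate 2 and 36.2% highest in replicate 3. The part of these markers in the order was not tested. The summed level of the 54 genes lay between those of the other stages in each of the 3 libraries. Proliferating libraries differed little, with median deviations of -0.01, 0.07 and -0.04, although Myh3 read 3055 in proliferating replicate 1, against 23038 and 15385 in replicates 2 and 3. Freshly isolated replicate 1, the shallowest library, was the highest of its stage in 26 of the 54 genes (48.1%) and the lowest in 17 (31.5%). Over all genes tested these shares were 39.7% and 41.9%.

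**Figure D4:**
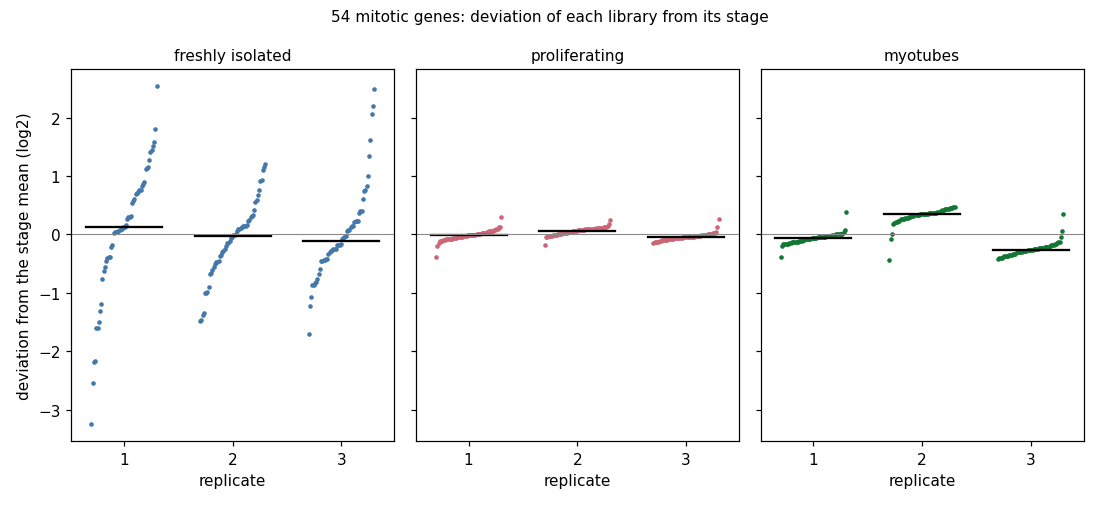
Deviation of each library from its stage mean on the log2 scale for the 54 genes (points), by replicate, with the median (line). The proliferating libraries lie close to 0, myotube replicate 2 lies above (median 0.35) and replicate 3 below (median -0.26), and the freshly isolated libraries scatter most.

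A wider list of 105 further mitotic genes, found in the table of 106 listed and also chosen with earlier results known, moved mostly in the same directions. In proliferating against freshly isolated cells 91 were higher (86.7%), 5 lower (4.76%) and 9 not called, against 37.6% higher and 35.7% lower over the 17291 genes, with a median log2 difference of 2.21. The largest rises were those of Pbk (8.35 ± 0.48), Ckap2l (8.35 ± 0.38), Melk (8.25 ± 0.67), Nek2 (8.17 ± 0.31), Kif4 (8.15 ± 0.48) and Troap (7.92 ± 0.61). The 5 lower genes were Chmp4b (-0.83 ± 0.16), Wee1 (-0.68 ± 0.13), Clasp2 (-0.59 ± 0.10), Wapal (-0.31 ± 0.08) and Stag2 (-0.27 ± 0.10), of which Wapal and Stag2 were not called after scaling to equal library totals or quantile normalization. Wee1, the kinase that holds Cdk1 inactive, read 899, 883 and 948 in proliferating cells, against 1695, 1330 and 1381 in freshly isolated cells. In myotubes against proliferating cells 68 were lower (64.8%), 12 higher (11.4%) and 25 not called, against 25.5% lower and 28.6% higher over the 17291 genes, with a median of -1.02. Trip13, which takes apart the checkpoint complex, averaged 203 ± 39.5 in myotubes and 1048 ± 97.4 in proliferating cells (SD, n = 3 each), the lowest log2 difference of the list at -2.38 ± 0.89 (limma adjusted p = 0.0439). Pkmyt1 (-2.31 ± 0.86), Cdc25b (-2.30 ± 0.15), Troap (-2.29 ± 0.61), Gsg2 (-2.20 ± 0.64) and Haus5 (-2.08 ± 0.36) followed. Of the Haus5 exon bases 56.5% overlap Gm21982 on the same strand, and 15.1% of those of Kif4 overlap Pdzd11 on the opposite strand, so these counts are uncertain.

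The anaphase-promoting complex is the partner of Cdc20. Of its 17 listed subunits and regulators, 6 were higher in myotubes than in proliferating cells, 6 were lower and 5 were not called. This was 35.3% each way, against 28.6% higher and 25.5% lower over the 17291 genes. In proliferating against freshly isolated cells 15 were higher (88.2%), against 37.6% higher and 35.7% lower over the 17291 genes. The core subunits Anapc10, Anapc13, Anapc16, Anapc7 and Anapc4 were higher in myotubes by 1.2 ± 0.36, 1.04 ± 0.25, 0.97 ± 0.20, 0.89 ± 0.13 and 0.66 ± 0.09 on the log2 scale. Anapc4, for one, averaged 2388 ± 42.9 in myotubes and 1519 ± 142 in proliferating cells (SD, n = 3 each). Fzr1 (Cdh1), the activator that replaces Cdc20 at the end of mitosis, averaged 639 ± 58 in myotubes and 1652 ± 30.3 in proliferating cells, a log2 difference of -1.37 ± 0.11 (limma adjusted p = 5.03e-06). Chmp4b, an ESCRT protein of the final cut between daughter cells, was higher in myotubes than in proliferating cells by 0.52 ± 0.16. Scaling the libraries to equal totals moved the median of all genes tested in this comparison to -0.117, against 0.038 as deposited. The 6 higher members of the complex kept their sign under that scaling and under quantile normalization, but 4 and 5 of them were then called.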

How the data were processed

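The genes and gene lists were chosen with earlier results of these data known. Per the labels' protocols, ribosomal RNA was removed with RiboGone from 100 ng of total RNA, and the libraries were stranded (SMARTer total RNA kit). The submitters' processing notes name STAR 2.4.0a, featureCounts 1.4.5-p1 and Subread, and mm10 (GRCm38). No source used here gives the tool of the normalization or how strand was treated. What the authors deposited are score values, that is, read counts per gene after scaling between the libraries and rounding, here called normalized counts. The Q columns were assigned to freshly isolated cells because the other prefixes match the other stages. Estimated reads per library, from the step between low values, set the worth of 1 read and cover counting error only.

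The tests used log2 of the value plus 1, with no scaling added. A gene was tested if 3 or more libraries reached 10, which 17291 genes did. All 9 libraries entered 1 limma model (limma 3.58.1, R 4.3.3) with a mean-variance trend and no block, with Benjamini-Hochberg adjustment and a threshold of 0.05. The model was checked on simulated data in which a gene had the same spread at all stages. That check did not cover the wider scatter of the 54 genes in the freshly isolated libraries. Libraries did not overlap where all 3 of a stage lay on 1 side of all 3 of the other. Any of the 54 genes could be named. Values of each library were given for 26 chosen genes and for the largest and smallest change of each role and comparison, with up to 6 other mitotic genes per direction. Those of Plk4, Cenpn and Ska1 were given outside this rule. Of 106 further symbols 105 were found. Gene positions and overlaps came from GENCODE vM21, to which 45143 genes matched, and similar transcripts were searched there with BLAST at 90% identity or more. For levels per kb, values were divided by the merged length of all annotated exons of a gene. Alternatives were other added constants, filters and scalings, fits without the trend, of 2 stages or with a replicate block, and each library left out.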

Additional observations from a re-analysis of the deposited data

How the results depend on the processing

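The counts of the 54 genes in proliferating against freshly isolated cells (53 higher, 1 lower) and in myotubes against freshly isolated cells (52 higher) held when each library was left out. Genes lower in myotubes than in proliferating cells numbered 42, between 35 and 52 under all alternatives run; with the replicate block they were 44, no other count of the 54 genes changed under that block, and same-numbered libraries did not deviate together (correlations of their deviations from the stage means of -0.034 to 0.027). Pttg1 in myotubes against freshly isolated cells, 0.23 and never called, was -0.21 under quantile normalization, -0.05 without freshly isolated replicate 1 (also with proliferating replicate 1 left out) and -0.05 to 0.45 over the fits without 1 library. Ska3 in the same comparison was -0.06 under quantile normalization, against 0.30. Of the further mitotic genes, those lower in proliferating against freshly isolated cells were 3 in place of 5 with equal library totals or quantile normalization, and those higher in myotubes than in proliferating cells 6 and 7 in place of 12. In the 150 bases before the start, 17 in place of 34 gene windows held a CHR (37%, against 5.89% of genes tested) and 0 in place of 1 the motif GGCGGGAA; the shorter window leaves out the bases after the start. The cause of the other changes was not tested. Depth limits the freshly isolated values most, since 3 reads are worth 3.13 to 6.54 normalized counts there.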

Other observations

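Of the 105 further mitotic genes, 9 were lower in myotubes than in freshly isolated cells (8.57%), while 80 were higher (76.2%), against 37.3% lower and 40.2% higher over the 17291 genes (limma adjusted p below 0.05). The 6 with the lowest values were Wee1, the kinase that delays entry into mitosis, Numa1, which anchors the spindle poles, Haus5, of the augmin complex, Pcnt, a scaffold of the centrosome, and the cohesin genes Smc1a and Stag1. Wee1 read 344, 398 and 302 in myotubes, against 1695, 1330 and 1381 in freshly isolated cells. Numa1 read 2848, 3326 and 2634 in myotubes, against 11720, 7593 and 7904 in freshly isolated cells. Their libraries did not overlap, and the log2 differences were -2.07 ± 0.13 for Wee1 (limma adjusted p = 2.01e-07) and -1.61 ± 0.16 for Numa1 (limma adjusted p = 5.33e-06). Haus5 (-1.50 ± 0.36), Pcnt (-1.16 ± 0.21), Smc1a (-0.88 ± 0.21) and Stag1 (-0.68 ± 0.13) were lower as well (n = 3 each), but 56.5% of the Haus5 exon bases overlap Gm21982 on the same strand. Freshly isolated replicate 1 was the highest library of its stage for Wee1, Numa1, Pcnt and Smc1a and the lowest for Haus5 and Stag1.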
